A study of Sus scrofa with 92 samples.

Results

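MFAP2, FBLN1, COL1A1, COL1A2, COL3A1, FN1, TIMP1, LOX and ELN are genes of the extracellular matrix and its remodeling, and they are described here in pig liver through hemorrhagic shock and resuscitation. The set was chosen by gene symbol after earlier results of these data were known, and in particular after MFAP2 had been seen to fall at 8 hours of resuscitation. Of the 9 genes, 8 have a row under their pig Ensembl identifier, out of 18356 identifiers with at least 1 count, and all 8 were among the 13667 genes tested. COL1A1 is not analysed here. COL1A2 has a second identifier (ENSSSCG00000022000) with 0 counts in all 92 libraries, so its other row (ENSSSCG00000015326) was used.

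The study took liver biopsies from 23 juvenile male Yorkshire-Landrace pigs and made an RNA-seq library from each at Baseline (B) and at 2, 8 and 20 hours of full resuscitation (FR2, FR8 and FR20). All animals were fasted overnight, had their spleen removed, and received a blunt chest injury, a hemorrhage by blood withdrawal and a crush injury of the liver, followed by limited and then full resuscitation with fluid, shed blood and ventilation. The fasted group (FS, 18 animals) received nothing further, and the carbohydrate prefed group (CPF, 5 animals) received a bolus of sugar syrup 1 hour before induction. No uninjured animals were sampled over the same hours, so injury, resuscitation, anesthesia and repeated biopsy cannot be told apart. The labels record 5 animals as died (3 FS, 2 CPF) and 18 as lived.

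The matrix of the liver is thin in health. Fibrillar collagens I and III, made mainly by hepatic stellate cells and portal fibroblasts, form its cables. Elastin is laid on microfibrils, in which MFAP2 (microfibril associated protein 2) sits beside fibrillin, and fibulin 1 (FBLN1) joins elastic fibers and basement membranes. Fibronectin, which hepatocytes also secrete into plasma, is the scaffold on which new matrix assembles. Lysyl oxidase (LOX) crosslinks collagen and elastin, and TIMP1 inhibits the metalloproteinases that degrade them. In liver injury TIMP1 is known as an early gene and collagen I as a later one.

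Before the results, the libraries that stand apart are given. Baseline libraries of FS animals 13, 14 and 16 held albumin at 0.197, 52.7 and 0.312 CPM (counts scaled to a library total of 1000000), where the other FS Baseline libraries held at least 59450, and they were left out. The FR8 library of CPF animal 1 held 4388 counts and was left out as well (7 counts of COL3A1, 21 of FN1 and 0 of the other 6 genes). The other 88 libraries held 6877117 to 16613261 counts, with a median of 12071957.5, and 13200 CPM of albumin or more. Among these 88, the FR2 and FR8 libraries of FS animal 8 listed 446 and 443 of 4410 abundant genes (median over 20 CPM) at 0, while no other library listed more than 1. Both of these libraries had 0 counts at every one of the 159 abundant genes that RefSeq places on the chromosome of COL1A2 and of the 124 on that of TIMP1. A score over 358 genes that differ between Baseline and later libraries and are in none of the lists used here placed 6 more libraries on the other side of its midpoint (0.85) than their timepoint label: FS animals 3 and 7 at B (1.15 and 1.85, other FS Baseline libraries −0.28 to 0.15), FS animals 13, 14 and 16 at FR8 (−0.16, 0.20 and −0.09, other FS libraries 1.29 to 2.41) and CPF animal 4 at FR20 (0.06, other CPF libraries 1.48 to 2.12). Labels were kept as given. Values are also stated without both libraries of FS animal 8 (86 libraries) or without these and the 6 others (80 libraries). Both choices were made after seeing the data, and since the 6 were picked by expression, larger changes without them follow in part from how they were picked.

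Values are CPM on library sizes scaled by TMM. Changes are log2 fold changes from Baseline with their standard error (SE), and a gene was called at an adjusted p under 0.05 and a log2 fold change of at least 1 in size. In FS animals FBLN1, FN1 and both collagens lay lower at FR2 and FR8 by the adjusted p, as did MFAP2 at FR2 and ELN at FR8, and TIMP1 was higher from FR2 on. At FR20 the collagens no longer lay lower. At FR2vB 3 of the 8 genes were called (TIMP1 up, MFAP2 and COL1A2 down), where 11% of all genes tested were called. At FR8vB 2 of 7 were called (TIMP1 up, COL1A2 down), against 11.8% of all genes, with MFAP2 kept out of the count because this contrast chose it. Without both libraries of FS animal 8, COL1A2 was called at neither time. The counts were then 2 of 8 at FR2vB and 1 of 7 at FR8vB, beside 10.9% and 11.2% of all genes. At FR20vB 3 of 8 were called (TIMP1 and LOX up, MFAP2 down), against 9.94%. By the adjusted p alone 6 of 8 passed at FR2vB, 6 of 7 at FR8vB and 6 of 8 at FR20vB, where 41.4%, 39.3% and 33.8% of all genes passed. In CPF animals 1 of 8 was called at FR2vB (TIMP1 up, 2.41% of all genes), 3 of 7 at FR8vB (TIMP1 and LOX up, FBLN1 down, 8.83%) and 0 of 8 at FR20vB (0.702%). At this last step 4 of the 8 had an unadjusted p under 0.05 by edgeR's quasi-likelihood test, where 2249 of all 13667 genes did. DESeq2's Wald test and edgeR's likelihood ratio test also called 0 of the 8. All comparisons with Baseline share the Baseline libraries of a group.

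**Figure D1:**
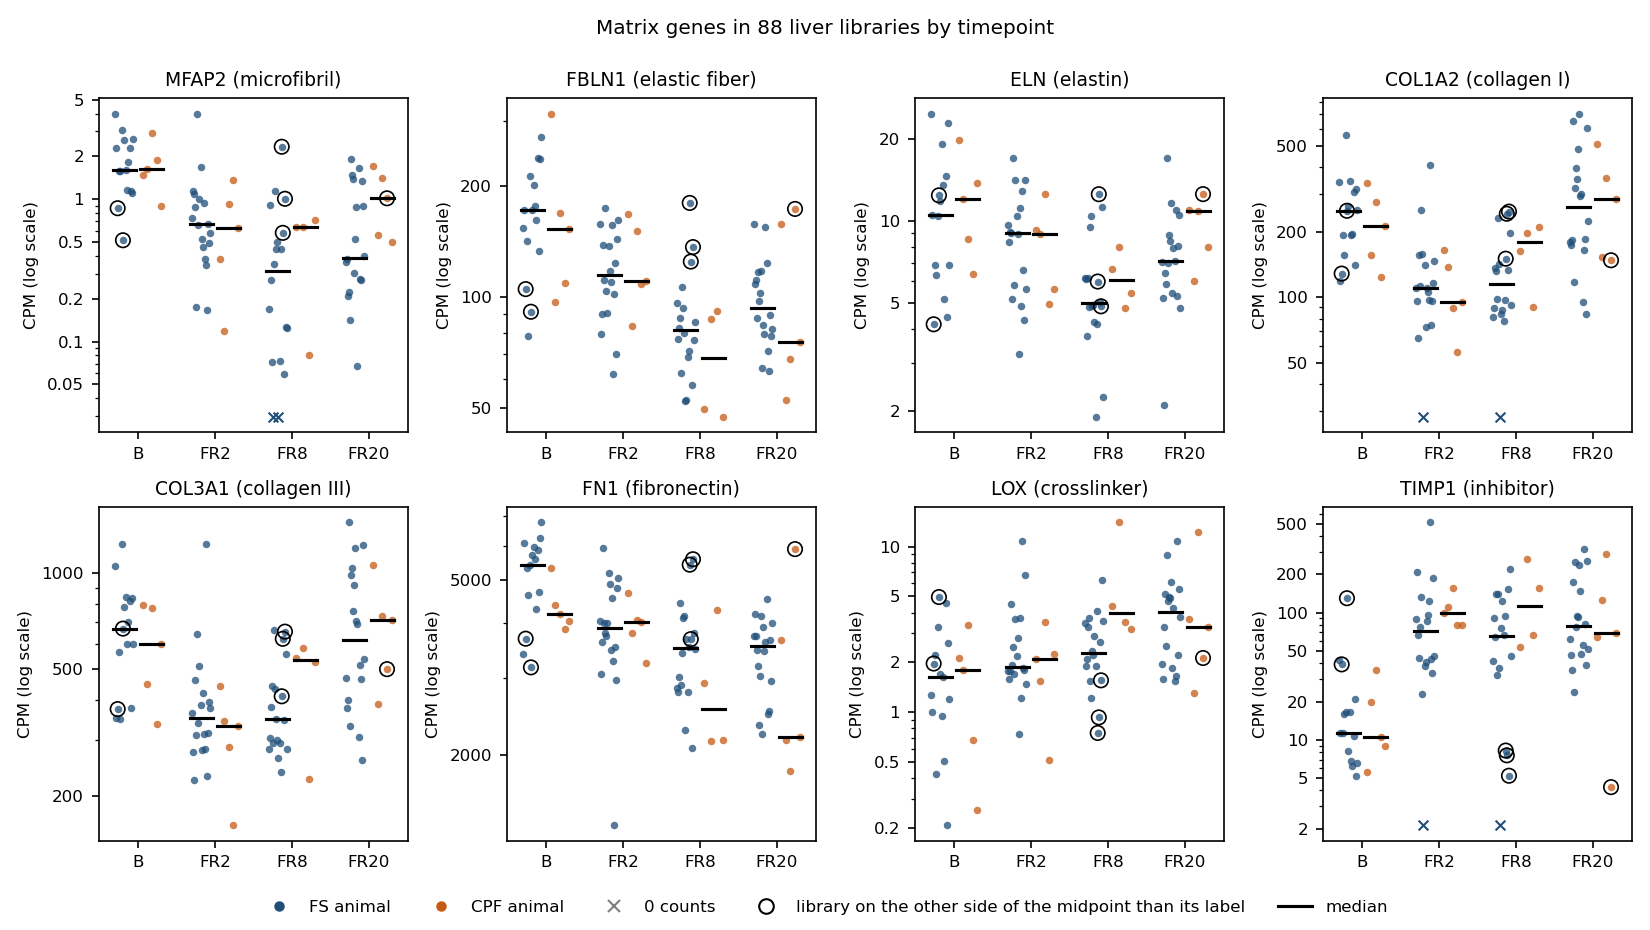
CPM on a log axis of the 8 genes in 88 liver libraries at B, FR2, FR8 and FR20, with FS animals in blue, CPF animals in orange, bars at the group medians, crosses for 0 counts and rings around the 6 libraries on the other side of the midpoint than their label. MFAP2 medians of FS animals lie at 1.61 CPM at B and 0.311 at FR8, and the ringed FR8 libraries of FS animals lie among the lowest TIMP1 values at that time.

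MFAP2 (ENSSSCG00000003479) was scarce in every library, with 0 to 39 counts. In FS animals it ran from 0.515 to 3.99 CPM at B (median 1.61, n = 15), from 0.168 to 4.00 at FR2 (median 0.667, n = 18), from 0 to 2.34 at FR8 (median 0.311, n = 18) and from 0.0679 to 1.93 at FR20 (median 0.388, n = 18). The groups overlapped at every time, although 13 of the 18 FR8 libraries lay below all Baseline libraries. FS animals 5 and 10 had 0 counts at FR8, which allows up to 0.249 and 0.193 CPM of the library total at a limit of 3 counts. The highest FR8 value, 2.34 CPM, came from animal 13, whose score lay on the Baseline side.

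The FR8 change of MFAP2 is the value that chose the gene and is given as a description: −2.51 (SE 0.38) in 88 libraries and −3.09 (SE 0.40) in 80. It was lower at FR8 than at B in 14 of 15 FS animals, with changes from −3.64 to 0.94 and a median of −2.55. At times the choice did not use, MFAP2 was lower by −1.40 at FR2vB (SE 0.35, adjusted p = 0.00113 by edgeR's quasi-likelihood test, lower in 11 of 15 animals) and by −1.79 at FR20vB (SE 0.36, adjusted p = 9.31e-05, lower in 14 of 15). These 2 contrasts use the same Baseline libraries as the one that chose it. The steps into and out of FR8 use the libraries that chose it and are likewise a description: −1.11 from FR2 to FR8 (SE 0.37) and 0.72 from FR8 to FR20 (SE 0.36), the latter 1.22 in 80 libraries (SE 0.40).

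In the 5 CPF animals MFAP2 was 1.49, 1.63, 2.90, 1.90 and 0.898 CPM at B, 0.383, 0.118, 0.924, 1.36 and 0.626 at FR2, and 1.70, 0.563, 1.40, 1.02 and 0.502 at FR20 (animals 1 to 5). At FR8, animals 2 to 5 had 0.639, 0.636, 0.0799 and 0.719 CPM. Every FR8 value lay below every CPF Baseline value, and the value of animal 4 was a single count. How many of all genes separate in this way in groups this small is not given here. The change was −1.36 at FR2vB (SE 0.65, adjusted p = 0.226, lower in 5 of 5) and −0.80 at FR20vB (SE 0.62, adjusted p = 0.548, lower in 4 of 5). At FR8vB, the time at which the gene was chosen, it was −1.65 (SE 0.72).

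FBLN1 (ENSSSCG00000000010), the fibulin of elastic fibers, was far better counted, with at least 462 counts in each library. FS animals had 78.6 to 271 CPM at B (median 172.5), 61.9 to 174 at FR2 (median 114.7), 52.5 to 180 at FR8 (median 81.4) and 63.0 to 158 at FR20 (median 93.6). The FR8 libraries lay lowest, with 8 of 18 under all Baseline libraries. The changes were −0.52 at FR2vB (SE 0.15, adjusted p = 0.00478), −0.96 at FR8vB (SE 0.16, adjusted p = 3.54e-06, lower in 14 of 15 animals) and −0.78 at FR20vB (SE 0.16, adjusted p = 7.91e-05). All passed the adjusted p and missed the fold of the call. At FR8vB the call came with 80 libraries (−1.23, SE 0.14, adjusted p = 1.32e-10) and also when FS animal 3, 5, 7, 13, 14 or 16 alone was left out (−1.0 to −1.04).

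In CPF animals FBLN1 fell by 1.06 at FR8vB on the log2 scale (SE 0.31, adjusted p = 0.0161). Animals 1 to 5 had 314, 96.9, 169, 109 and 153 CPM at B, and animals 2 to 5 had 49.8, 87.1, 91.6 and 47.5 at FR8. Each of the 4 animals was lower, and the groups did not overlap, a separation whose share among all genes is not given here. The call sits at the fold threshold: it was lost without CPF animal 1 (−0.99, adjusted p = 0.035) or 5 (−0.90, adjusted p = 0.126), in 80 libraries (−1.0, adjusted p = 0.00291), and with the 3 Baseline libraries without albumin kept (−1.06, adjusted p = 0.158). At FR2vB and FR20vB the CPF values were −0.37 (SE 0.28, adjusted p = 0.472) and −0.69 (SE 0.28, adjusted p = 0.197), and the latter was called without CPF animal 4 (−1.04, adjusted p = 0.038), whose FR20 library scored on the Baseline side.

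ELN (ENSSSCG00000025858), elastin itself, held 20 to 289 counts. In FS animals it was 4.17 to 24.8 CPM at B (median 10.5), 3.24 to 17.02 at FR2 (median 9.02), 1.90 to 12.6 at FR8 (median 4.97) and 2.11 to 17.04 at FR20 (median 7.10). Levels lay lowest at FR8 and overlapped Baseline at all times. Its changes were −0.34 at FR2vB (SE 0.17, adjusted p = 0.10), −0.92 at FR8vB (SE 0.17, adjusted p = 2.41e-05, lower in 14 of 15 animals) and −0.53 at FR20vB (SE 0.17, adjusted p = 0.0123). The FR8vB value was called with 80 libraries (−1.01, SE 0.19, adjusted p = 7.31e-06) and without FS animal 15 (−1.0, adjusted p = 1.75e-05). CPF animals gave −0.56, −0.85 and −0.27 at FR2vB, FR8vB and FR20vB (adjusted p = 0.298, 0.078 and 0.707).

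**Figure D2:**
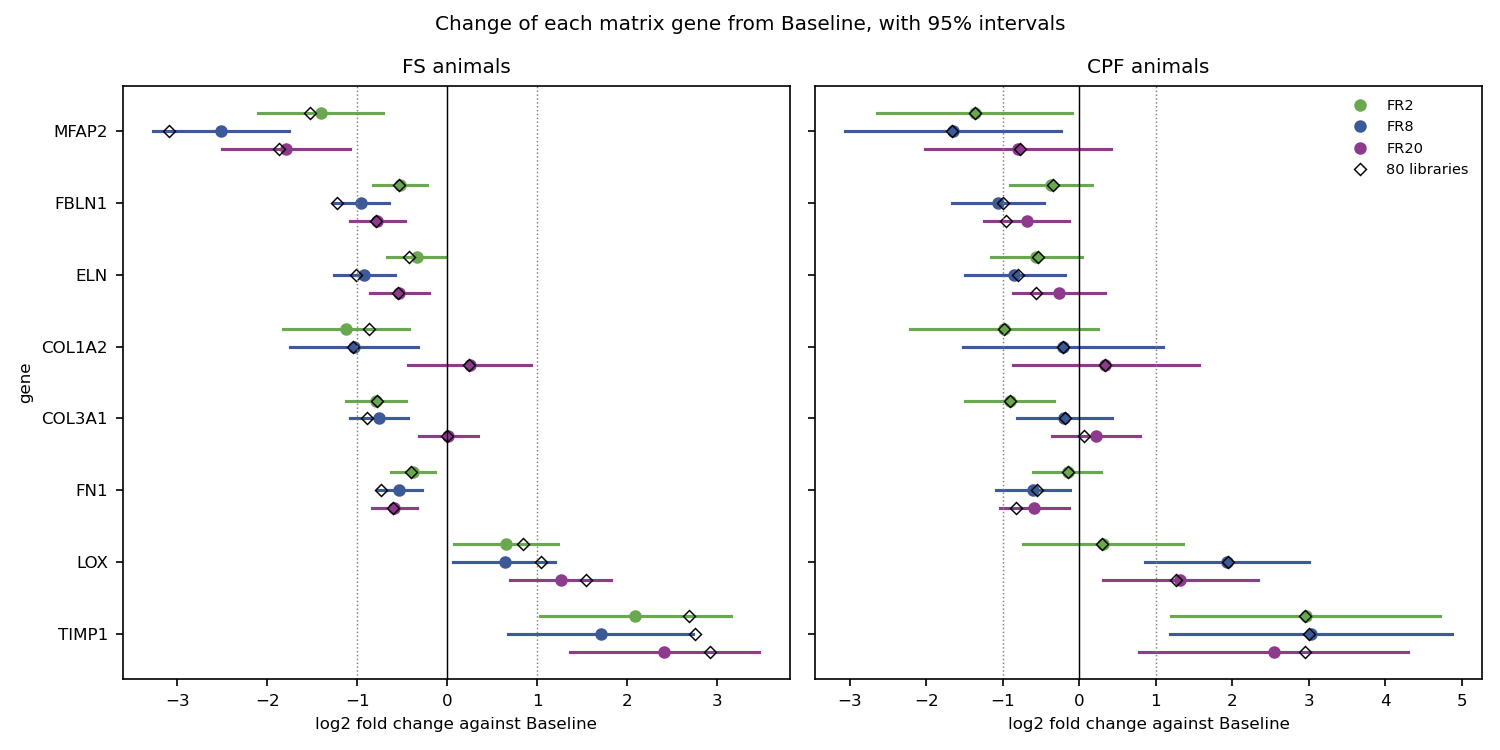
Log2 fold change from Baseline of each gene at FR2 (green), FR8 (blue) and FR20 (purple) in FS animals (left) and CPF animals (right), as points with 95% intervals from the fit of 88 libraries, and as open diamonds from the fit of 80 libraries. Dotted lines mark the fold of a call, and the FR8 value of MFAP2 in FS animals (−2.51) is the one that chose the gene. The points of TIMP1 and LOX lie right of 0 and those of MFAP2, FBLN1, ELN and FN1 left of 0 at every time in both groups.

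The fibrillar collagens dipped and returned. COL3A1 (ENSSSCG00000016034), the chain of collagen III, had 348 to 1236 CPM at B in FS animals (median 669.6), 224 to 1238 at FR2 (median 351), 238 to 665 at FR8 (median 347) and 260 to 1446 at FR20 (median 615). At FR2 it was lower in 15 of 15 animals and at FR8 in 14 of 15, while at FR20 it was higher in 9 and lower in 6. The changes were −0.79 at FR2vB (SE 0.17, adjusted p = 0.000128), −0.76 at FR8vB (SE 0.17, adjusted p = 0.000261) and 0.01 at FR20vB (SE 0.16, adjusted p = 0.958), with a 95% interval of −0.31 to 0.34 for the last. From FR8 to FR20 COL3A1 gained 0.77 (SE 0.16, adjusted p = 0.00156, higher in 15 of 18 animals).

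COL1A2, the second chain of collagen I, gave the same picture in libraries where it was listed. In FS animals it was 119 to 563 CPM at B (median 251), 111 at the FR2 median, 116 at the FR8 median, and 83.6 to 705 at FR20 (median 260). FS animal 8 had 0 counts at FR2 and FR8, in libraries that list every abundant gene of this chromosome at 0. These zeros set no upper limit on the level of COL1A2. The lowest of the other 67 FS libraries had 64.9 CPM. With the 88 libraries the changes were −1.12 at FR2vB (SE 0.36, adjusted p = 0.00915), −1.04 at FR8vB (SE 0.36, adjusted p = 0.0189) and 0.25 at FR20vB (SE 0.35, adjusted p = 0.614), so that the first and second were called. Without the FR2 and FR8 libraries of animal 8 they were −0.92 (SE 0.21, adjusted p = 0.000381) and −0.83 (SE 0.22, adjusted p = 0.00155), past the adjusted p and short of the fold. A fit with no term for the animal also fell short of it (−0.96 at both times, adjusted p = 0.0238 and 0.0271). At FR8vB the call was also lost without FS animal 1 (−0.95, adjusted p = 0.0446), 9 (−0.99, adjusted p = 0.0366) or 12 (−0.99, adjusted p = 0.0378), and with 80 libraries it was called (−1.05, SE 0.22, adjusted p = 5.81e-05), while FR2vB was not (−0.87, adjusted p = 0.00079). Leaving out animal 8, COL1A2 was lower at FR2 than at B in 14 of 14 FS animals and at FR8 in 13 of 14.

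The later rise of COL1A2 was called with 88, 86 and 80 libraries. From FR8 to FR20 COL1A2 rose by 1.28 in 88 libraries (SE 0.35, adjusted p = 0.016), by 1.09 in 86 (SE 0.21, adjusted p = 0.00134) and by 1.29 in 80 (SE 0.20, adjusted p = 6.08e-06), and 14 of the 17 animals other than animal 8 were higher at FR20. It was not called without FS animal 10 (1.14, adjusted p = 0.0556). Of the 8 genes it was the single call in this step, where 1.46% of all genes were called. In the step from FR2 to FR8 no gene of the set other than MFAP2 was called, where 5.96% of all genes were called. MFAP2 was at −1.11 there (SE 0.37) and is kept out of that comparison, since its FR8 libraries chose it. MFAP2 fell short of the call there without FS animal 4 (−1.0) or 6 (−0.94) and with no term for the animal (−0.90).

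In CPF animals collagen values went the same way at FR2 and passed no threshold in the 88 libraries. COL3A1 was 795, 449, 780.0, 335 and 598 CPM at B and 443, 344, 285, 161 and 330.2 at FR2 in animals 1 to 5, lower in each (−0.91, SE 0.30, adjusted p = 0.0651). In 80 libraries the same change had an adjusted p of 0.033. COL1A2 was lower in 5 of 5 as well (−0.99, SE 0.63, adjusted p = 0.381). That SE uses the spread shared by all groups, with the 0 counts of FS animal 8 in it. Without both libraries of FS animal 8 the COL1A2 change was −0.99 (SE 0.37, adjusted p = 0.104 by edgeR's quasi-likelihood test). In 80 libraries its SE was 0.35 (adjusted p = 0.0668 by the same test). In the 88 libraries COL3A1 and COL1A2 stood at −0.20 and −0.21 at FR8vB and at 0.22 and 0.34 at FR20vB (adjusted p = 0.727 to 0.867).

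**Figure D3:**
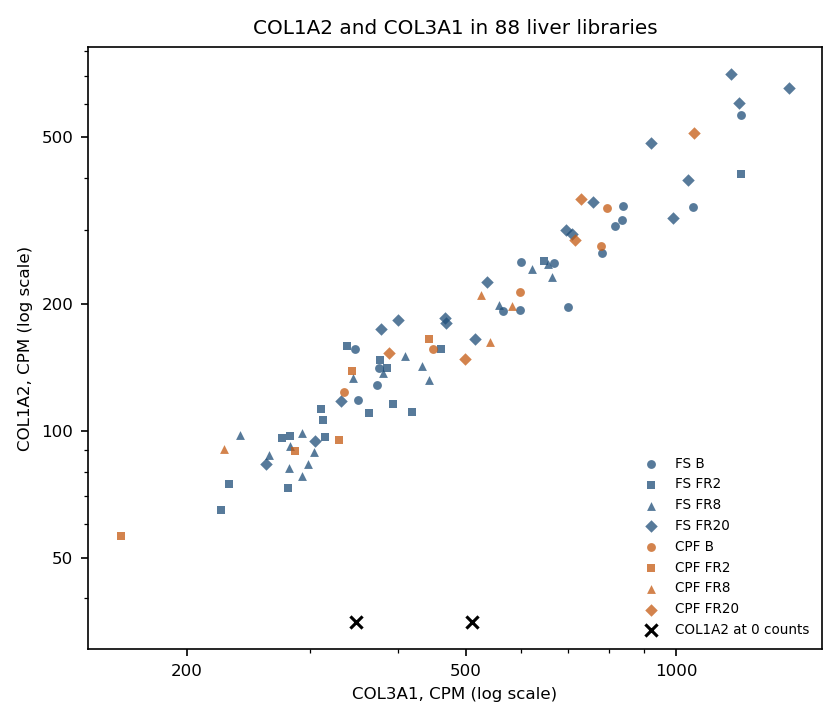
COL1A2 against COL3A1 in each of 88 libraries, in CPM on log axes, with FS animals in blue and CPF animals in orange and a marker shape for each timepoint. The FR2 and FR8 libraries of FS animal 8 are crosses at the lower edge, where COL1A2 had 0 counts, and the other 86 libraries lie along a line.

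Across libraries, with the group means removed, log2 CPM of COL1A2 and COL3A1 had a Pearson r of 0.36 in all 88 libraries and 0.96 in 86. COL1A2 and TIMP1 had 0.71 in 88 and 0.22 in 86, as both are at 0 in the same libraries. FBLN1 and FN1 had 0.64 in both sets, ELN and COL3A1 had 0.53 in both, and FN1 and TIMP1 ran against each other (−0.48 and −0.62). MFAP2 reached at most 0.33, with ELN. These values describe libraries of the same 23 animals, up to 4 from each, scaled together.

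FN1 (ENSSSCG00000016174), fibronectin, was lower than Baseline at all 3 later times in FS animals. It had 3169 to 6779 CPM at B (median 5408), 1385 to 5922 at FR2 (median 3891), 2074 to 5584 at FR8 (median 3506) and 2240 to 4527 at FR20 (median 3548). The ranges overlapped at each time and the medians after Baseline lay under that of Baseline. The changes were −0.38 at FR2vB (SE 0.13, adjusted p = 0.0126), −0.53 at FR8vB (SE 0.13, adjusted p = 0.000714) and −0.59 at FR20vB (SE 0.13, adjusted p = 0.000227), none at the fold of a call. At FR20 it was lower in 13 of 15 FS animals. In CPF animals FN1 was 5325, 4400.0, 4188, 3884 and 4039 CPM at B and 3661, 2164, 1839, 5888 and 2197 at FR20. Animal 4, whose FR20 library scored on the Baseline side, was the single higher one. The CPF change at FR20vB was −0.59 (SE 0.23, adjusted p = 0.178), and −0.83 in 80 libraries (SE 0.20, adjusted p = 0.00582).

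LOX (ENSSSCG00000014232), the crosslinking enzyme, went the other way. FS animals had 0.207 to 4.96 CPM at B (median 1.63), 0.740 to 10.9 at FR2 (median 1.89), 0.749 to 6.29 at FR8 (median 2.27) and 1.54 to 10.8 at FR20 (median 4.03), from 2 to 158 counts. At FR20, 13 of 15 animals were above their own Baseline and 6 of 18 libraries above all Baseline libraries. The changes were 0.65 at FR2vB (SE 0.29, adjusted p = 0.0675), 0.64 at FR8vB (SE 0.29, adjusted p = 0.0708) and 1.26 at FR20vB (SE 0.29, adjusted p = 0.000411), and the last was called. With the 3 Baseline libraries without albumin kept, the FR20vB change was 0.95 (adjusted p = 0.0129) and no longer called. In 80 libraries the FR8vB change was called too (1.04, SE 0.30, adjusted p = 0.00295).

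In CPF animals LOX rose at FR8. Animals 1 to 5 had 2.13, 1.81, 3.37, 0.679 and 0.257 CPM at B, and animals 2 to 5 had 4.38, 14.1, 3.52 and 3.19 at FR8. All 4 were higher than their own Baseline, and 3 of the 4 lay above every Baseline value. The change was 1.93 (SE 0.55, adjusted p = 0.0144), and without CPF animal 3, 4 or 5 it was 1.86, 1.79 and 1.8 and not called (adjusted p = 0.0582, 0.0582 and 0.0707). Animal 3 stood highest at both FR8 and FR20, with 14.1 and 12.3 CPM.

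TIMP1 (ENSSSCG00000012277), the inhibitor of metalloproteinases, showed the largest rise of the 8 genes. In FS animals it had 5.16 to 130 CPM at B (median 11.4), 71.7 at the FR2 median with a highest value of 514, 65.4 at the FR8 median with a highest of 219.5, and 23.9 to 318 at FR20 (median 79.2). The groups overlapped, with 4 of 18 libraries at FR2, 4 of 18 at FR8 and 6 of 18 at FR20 above every Baseline library. At B animals 7, 1 and 3 had 130, 42.2 and 39.2 CPM and the other 12 at most 20.8. At FR8 animals 13, 14 and 16 had 8.24, 7.55 and 5.22 and animal 8 had 0 counts, while the other 14 had 32.1 or more. At FR2 animal 8 again had 0 counts, animal 7 had 22.8, and the other 16 had at least 33.8.

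The changes of TIMP1 in FS animals were 2.09 at FR2vB (SE 0.54, adjusted p = 0.00147), 1.71 at FR8vB (SE 0.52, adjusted p = 0.00711) and 2.41 at FR20vB (SE 0.54, adjusted p = 0.000352), higher than Baseline in 13, 12 and 13 of 15 animals, with animal 8 among the lower ones at FR2 and FR8 through its 0 counts. Without the FR2 and FR8 libraries of animal 8 they were 2.26, 1.87 and 2.37 (adjusted p = 9.76e-05, 0.000729 and 5.18e-05). In 80 libraries they were 2.69, 2.75 and 2.92 with an SE of 0.33 each (adjusted p = 3.53e-09, 7.88e-10 and 5.4e-10). The call depends on leaving out the Baseline libraries without albumin, which held 307, 255 and 917.5 CPM of TIMP1 on their own totals. With them kept the changes were 0.94, 0.83 and 1.40 (adjusted p = 0.246, 0.343 and 0.103).

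In CPF animals 1 to 5, TIMP1 was 5.54, 19.7, 35.7, 10.6 and 8.98 CPM at B, 99.95, 110.2, 156, 79.8 and 80.2 at FR2, and 64.4, 127, 287, 4.25 and 69.4 at FR20. At FR8, animals 2 to 5 had 53.6, 266, 67.2 and 157. All FR2 and FR8 values lay above all Baseline values, a separation whose share among all genes is not given here. At FR20 animal 4 alone lay below its own Baseline. The changes were 2.96 at FR2vB (SE 0.90, adjusted p = 0.0489), 3.03 at FR8vB (SE 0.94, adjusted p = 0.0245) and 2.54 at FR20vB (SE 0.90, adjusted p = 0.139). Without both libraries of FS animal 8, the SEs were 0.77, 0.80 and 0.77 (adjusted p = 0.0199, 0.00875 and 0.0699 by edgeR's quasi-likelihood test). The FR2vB and FR8vB changes were called there. With 80 libraries all 3 were called, at 2.95, 3.0 and 2.95 (adjusted p = 0.000528, 9.55e-05 and 0.000362). The refits that follow kept both libraries of FS animal 8, whose 0 counts of TIMP1 enter the spread shared by all groups. The FR2vB call was lost when any of the 5 CPF animals was left out (2.69 to 3.10, adjusted p = 0.0699 to 0.172), and the FR8vB call without animal 1, 3, 4 or 5 (2.62 to 3.12, adjusted p = 0.0546 to 0.131). Both were lost with the Baseline libraries without albumin kept (2.96 and 3.03, adjusted p = 0.161 and 0.0933), and FR2vB also with no term for the animal (2.70, adjusted p = 0.103) or no filter on low counts (2.97, adjusted p = 0.0571).

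Whether prior feeding altered these genes was compared in 2 ways. The interaction, the CPF change minus the FS change, was called for 0 of 8 genes at FR2vB, 0 of 7 at FR8vB and 0 of 8 at FR20vB, and it was called for 0% of all genes tested at each. At an unadjusted p under 0.05 by edgeR's quasi-likelihood test the counts were 0, 1 and 0, beside 397, 468 and 521 of all 13667 genes. The 1 was LOX at FR8vB (1.30, SE 0.62, p = 0.039, adjusted p = 0.999 by edgeR). In 80 libraries it was COL3A1 instead (0.69, SE 0.34, p = 0.0471, adjusted p = 0.983), with LOX at 0.91 (p = 0.13). For TIMP1 the 95% intervals of the interaction ran from −1.09 to 2.82, −0.71 to 3.35 and −1.83 to 2.09, and for COL3A1 from −0.78 to 0.54, −0.14 to 1.26 and −0.46 to 0.86. At the timepoints themselves CPF was set against FS, again with 0 of 8 genes called at B (0.0257% of all genes), FR2 (0%), FR8 (0%) and FR20 (0%). LOX at FR8 was higher in CPF animals by 1.29 (SE 0.39, unadjusted p = 0.00296, adjusted p = 0.789), the single gene of the 8 under an unadjusted p of 0.05 at any of the 4 times. Of all genes 895 of 11688, 664 of 11892, 618 of 11951 and 400 of 12307 were under it at B, FR2, FR8 and FR20. In 80 libraries FN1 was under it too by edgeR's quasi-likelihood test, at B (−0.31, p = 0.0433, adjusted p = 0.486) and at FR20 (−0.47, p = 0.0373, adjusted p = 0.999). Of all genes 1145 of 11481 and 425 of 12265 were under it there. DESeq2's Wald test and edgeR's likelihood ratio test also called 0 of the genes in each of these comparisons and in the one that follows.

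At FR20 the 5 animals that died were set against the 18 that lived, with a term for the feeding group, and 0 of 8 genes were called (0% of all genes). By edgeR's quasi-likelihood test 0 of 8 had an unadjusted p under 0.05, where 642 of all 12307 genes did. MFAP2 was 0.0679 to 1.40 CPM in animals that died (median 0.378) and 0.143 to 1.93 in those that lived (median 0.704), a difference of −1.05 (SE 0.63, adjusted p = 0.907). LOX was 1.31 to 12.3 (median 4.28) and 1.54 to 8.87 (median 3.45), a difference of 0.71 (SE 0.44, adjusted p = 0.907). TIMP1 differed by 0.15 (SE 0.79), with a 95% interval of −1.40 to 1.70. The remaining 5 genes lay at −0.23 to −0.51.

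The genes with the most similar pattern over the 88 libraries, by Pearson r of log2 CPM, are given as a description. For MFAP2 they were CRYL1 (0.70), MAN2B1 (0.69) and ADAMTSL2 (0.68), the last a secreted glycoprotein that binds microfibrils, and without both libraries of FS animal 8 ITM2B (0.68) stood in its place. For FN1 they were the coagulation factor F5 (0.84), DMGDH (0.83) and the transferrin receptor TFR2 (0.83), and in the 86 libraries CD36 (0.86), F5 (0.86) and TFR2 (0.85). For TIMP1 they were ANXA5 (0.87), the laminin chain LAMC1 (0.84) and HSPA8 (0.81), and in the 86 libraries SLC1A5 (0.84), ANXA5 (0.82) and PTGIS (0.81). The points share animals, depth and scaling.

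A wider set of 135 matrix genes in 9 lists by role was then described, of which 118 have a row and 111 were tested. In FS animals 23, 20 and 20 of them were called at FR2vB, FR8vB and FR20vB (20.7%, 18% and 18%, beside 11%, 11.8% and 9.94% of all genes), with 16, 7 and 13 up and 7, 13 and 7 down. In CPF animals 9, 18 and 3 were called (8.11%, 16.2% and 2.7%, beside 2.41%, 8.83% and 0.702%). In 80 libraries the FS counts were 25, 41 and 24 (22.5%, 36.9% and 21.6%, beside 12.8%, 19.4% and 12.1% of all genes) and the CPF counts 18, 21 and 15 (16.2%, 18.9% and 13.5%, beside 4.32%, 11.5% and 5.81%). The lists hold the 8 genes described above. MFAP2, whose FR8 libraries chose it, is among the 20 and the 41 called at FR8vB in FS animals. In the 88 libraries 5.17%, 4.44% and 4.68% of all genes were called higher and 5.85%, 7.39% and 5.25% lower in FS animals at FR2vB, FR8vB and FR20vB. In CPF animals 1.47%, 3.7% and 0.249% were called higher and 0.937%, 5.14% and 0.454% lower.

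The structural genes are given first. Of 12 collagens tested 2 were called at FR8vB in FS animals, both down, beside 7.39% of all genes called lower. COL1A2 was among them, and without both libraries of FS animal 8 it was −0.83 and not called. The median log2 fold change was −0.39 beside 0.00 over all genes. In 80 libraries 1 was up and 2 down, beside 8.96% and 10.5% of all genes. At FR20vB 2 were called, both up, beside 4.68% of all genes called higher, with a median of 0.44 beside 0.04. COL12A1, a collagen that sits on fibril surfaces, rose by 1.21 at FR2vB and by 1.06 at FR20vB (adjusted p = 1.39e-05 and 0.000129), in 80 libraries at FR8vB too (1.30, adjusted p = 2.64e-07), and at FR8vB in CPF animals (1.48, adjusted p = 0.0125). COL8A1 rose by 1.45 at FR20vB (adjusted p = 0.00189). Of 12 elastic fiber and microfibril genes 2 were down at FR8vB (median −0.68), MFAP2, whose value there chose it, and LTBP2 (−1.09, adjusted p = 0.000961), a microfibril protein of the latent TGF-beta binding protein family. Without MFAP2 that is 1 of 11, beside 7.39% of all genes called lower. In 80 libraries 6 of the 12 were down, beside 10.5%, and MFAP2, whose FR8 value chose it, is 1 of the 6. EFEMP1, also of the fibulin family, rose at FR20vB in FS animals (1.20, adjusted p = 4.25e-05) and in CPF animals (1.78, adjusted p = 0.0273). Of 9 proteoglycans 4 were down at FR8vB (median −0.95), beside 7.39% of all genes. OGN was at −1.69 there (adjusted p = 1.17e-06) and decorin (DCN) at −1.07 (adjusted p = 2.52e-05), while the large proteoglycan VCAN rose by 1.56 at FR20vB (adjusted p = 4.4e-05).

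Among 16 glycoproteins and laminins 1 was up and 1 down at FR8vB in FS animals (median −0.53), beside 4.44% and 7.39% of all genes. Tenascin C (TNC), a glycoprotein of wounds, rose by 1.41 at FR2vB (adjusted p = 0.00259) from a median of 1.68 to 5.51 CPM, and TNXB was at −1.36 at FR8vB (adjusted p = 6.84e-05). Vitronectin (VTN), which hepatocytes secrete into plasma, fell from a median of 1582 to 614.6 CPM at FR20 (−1.28, adjusted p = 1.51e-07).

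Of 11 collagen and elastin processing enzymes 1, 2 and 3 rose and 0 fell in FS animals at FR2vB, FR8vB and FR20vB, beside 5.17%, 4.44% and 4.68% of all genes called higher. In CPF animals 1, 4 and 0 rose, beside 1.47%, 3.7% and 0.249%. In 80 libraries 3 rose and 2 fell at FR8vB in FS animals, beside 8.96% and 10.5% of all genes. The 2 that fell were P4HA1 (−1.16, adjusted p = 8.11e-05) and ADAMTS2 (−1.14, adjusted p = 1.2e-06). LOXL4, a relative of LOX, rose by 2.76 at FR2vB (SE 0.49, adjusted p = 7.74e-06) from a median of 2.92 to 22.8 CPM in FS animals and by 2.74 in CPF animals (adjusted p = 0.0483). P4HA2, a subunit of the prolyl hydroxylase of collagen, rose by 1.48 at FR8vB in FS animals (adjusted p = 6.88e-05), and the lysyl hydroxylase PLOD2 by 1.31 in CPF animals (adjusted p = 0.019). Of 13 matrix proteases 5 rose and 1 fell at FR2vB in FS animals, beside 5.17% and 5.85% of all genes. Tissue plasminogen activator (PLAT) rose by 2.07 (adjusted p = 3.28e-05) and by 2.83 in CPF animals (adjusted p = 0.0156). MMP11, a stromal metalloproteinase, fell from 45.8 to 5.26 CPM at FR8 in FS animals (−2.45, adjusted p = 2.28e-07) and from 41.7 to 9.23 in CPF animals (−2.45, adjusted p = 0.00723).

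Of 4 protease inhibitors tested in FS animals, TIMP1 rose at all 3 times, and RECK, a membrane inhibitor of metalloproteinases, fell at FR2vB (−1.22, adjusted p = 7.52e-07) and at FR8vB (−1.01, adjusted p = 2.99e-05). The latter was −0.93 and not called without both libraries of FS animal 8. Of 18 genes of TGF-beta and PDGF signaling 2, 1 and 2 rose and 1, 1 and 1 fell in FS animals. Of all genes 5.17%, 4.44% and 4.68% rose and 5.85%, 7.39% and 5.25% fell. The ligand PDGFA rose at all 3 times (1.58, 1.89 and 1.44, adjusted p = 0.000293, 1.82e-05 and 0.000942), and CCN2, a matricellular protein induced by TGF-beta, fell from 69.3 to 20.9 CPM at FR8 (−1.29, adjusted p = 0.000259). Of 16 integrins and matrix receptors 4 rose at FR2vB, beside 5.17% of all genes, with the laminin receptor ITGA6 at 1.92 (adjusted p = 2.77e-09). The collagen receptor ITGA2 rose by 2.11 at FR8vB (adjusted p = 1.26e-05).

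**Figure D4:**
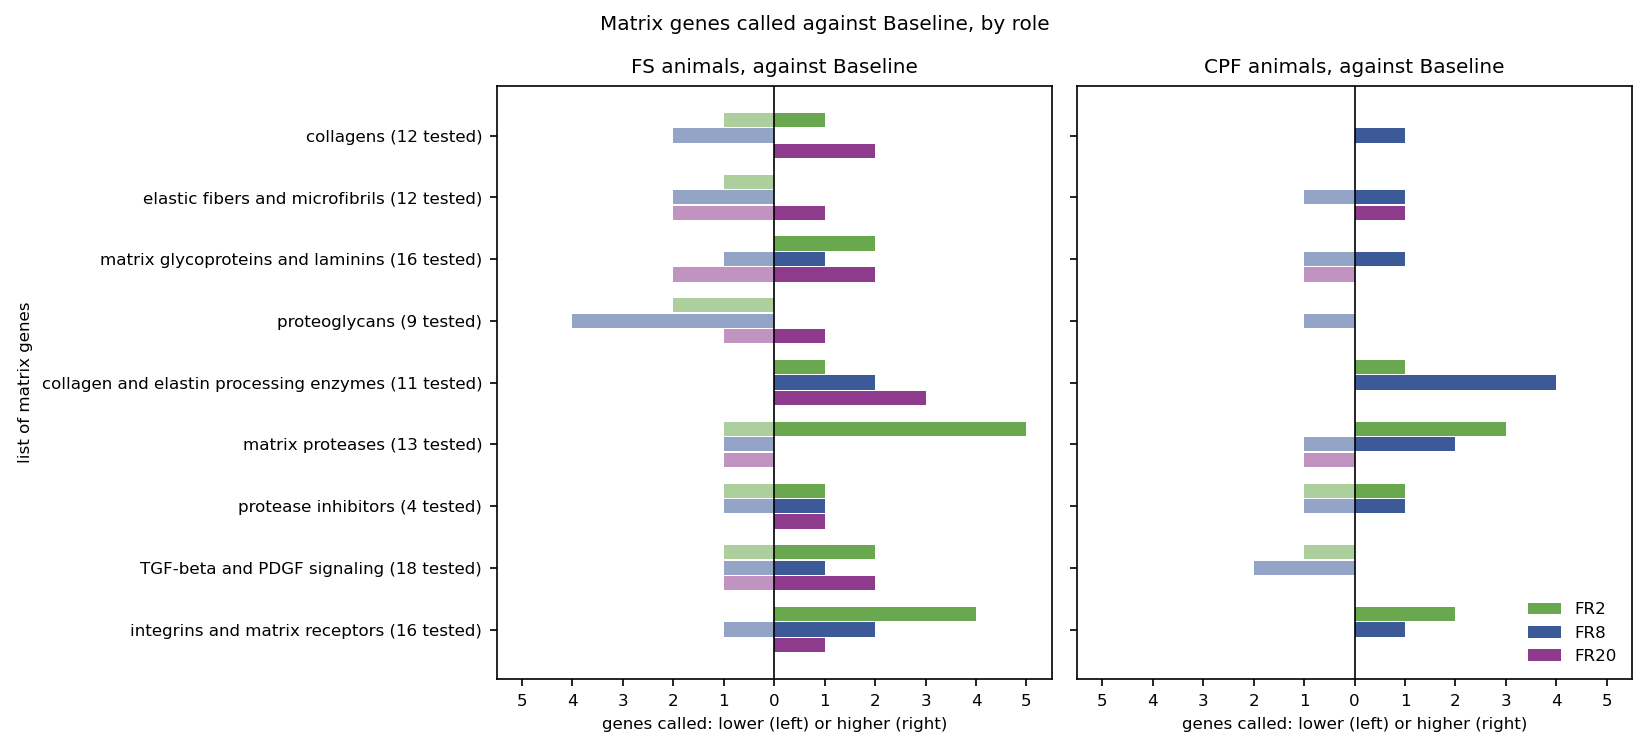
Number of genes called against Baseline in each of 9 lists of matrix genes, higher to the right in full color and lower to the left in pale color, at FR2 (green), FR8 (blue) and FR20 (purple), for FS animals (left) and CPF animals (right) in the fit of 88 libraries. Proteoglycans have 4 genes lower at FR8 in FS animals, MFAP2 is among the elastic fiber genes lower at FR8, and processing enzymes have none lower in this fit.

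Markers of the cells that make matrix, and of other liver cells, were read in the same libraries. In bulk tissue fewer cells of a type and less RNA per cell cannot be told apart. The summed CPM of 9 of 10 hepatic stellate cell markers had FS medians of 194, 158, 140.0 and 148 at B, FR2, FR8 and FR20 (ranges 130.4 to 334, 93.0 to 264, 97.5 to 195 and 108 to 218). The 5 of 8 portal fibroblast markers had medians of 146, 96.9, 84.5 and 86.3 (82.1 to 320, 58.8 to 176, 50.4 to 214 and 56.7 to 147). The 7 of 8 hepatocyte markers had medians of 182300, 131200, 78800 and 46500 (79880 to 211700, 47690 to 158600, 50940 to 178700 and 20590 to 144800), of which ALB alone gave 141500 at B. At FR8vB ALB, TTR and TF were called lower (−1.43, −1.85 and −1.28), FGB was called higher (1.10, adjusted p = 0.0127), and APOA1, APOB and CPS1 were not called (−0.61, −0.30 and −0.11). COLEC11 makes up much of the stellate sum, with a median of 117 CPM at B and 56.4 at FR8 (−0.93, adjusted p = 2.39e-06). Other stellate markers went both ways at FR8vB, with DES at −0.65 (adjusted p = 0.000703) and LRAT at 0.75 (adjusted p = 0.0127). Singly, 0 of 9 stellate markers were called in FS animals at any time, and of the 5 portal fibroblast markers 1, 0 and 1 were called lower at FR2vB, FR8vB and FR20vB. Of all genes 5.85%, 7.39% and 5.25% were called lower and 5.17%, 4.44% and 4.68% higher at these times. A count of 0 in lists this small lies near these shares. The part of these markers in the changes of FBLN1, ELN, the collagens and FN1 was not tested.

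For the other lists FS medians at B and FR8 were 210.4 and 224 CPM for smooth muscle (5 of 6 markers, MYH11 at 0 throughout), 198 and 213 for endothelium (4 of 7), 93.5 and 70.3 for Kupffer cells and macrophages (3 of 6), and 51.4 and 55.5 for cholangiocytes (4 of 6). In 80 libraries the smooth muscle medians were 225.8 and 187.6, lower at FR8. Those of endothelium, Kupffer cells and macrophages, and cholangiocytes kept their direction. The cholangiocyte sum reached a median of 107 at FR20. There 1 of its markers, SPP1, was called higher (1.47, adjusted p = 0.0103) and the other 3 were not called, beside 4.68% of all genes called higher. Neutrophil markers (5 of 6) had a median of 1.04 CPM at B (0 to 13.8) and 15.02 at FR2 (4.17 to 52.5), with CSF3R at 0 throughout, beside the TIMP1 rise, in which their part was not tested. Mesothelium of the capsule (4 of 8) and striated muscle (4 of 11) had medians of at most 0.675 and 2.33 CPM in FS animals, with CALB2 at 0 throughout and a highest muscle sum of 89.5.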

How the data were processed

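Liver RNA from 23 pigs was sequenced at 4 times with an oligo-dT library kit and single reads. Per the labels and the study's methods, the authors used CASAVA 1.8.2, aligned reads with TopHat 1.5.0 to Sscrofa10.2, sorted them with SAMtools and counted reads per pig Ensembl gene with HTSeq, whose mode and strand setting are not given in the sources used here. The deposited values are raw counts, not pooled, for 92 libraries. The study's conversion to human orthologs and its filter on low counts were not applied to them.

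Symbols were matched to 12504 of 25322 identifiers. Of 92 libraries 88 were used, and those left out are 3 without albumin and 1 with few counts. Counts were scaled by TMM, genes were kept when their CPM summed to 10 or more over libraries, and edgeR 4.0.16 (R 4.3.3) fitted all of them by its quasi-likelihood test with a term for each animal and for each fed group and time. P-values were adjusted by Benjamini and Hochberg over all genes tested. CPF was set against FS at single times, and died against lived at FR20, on the libraries of that time. Standard errors were computed back from the same fits, as the size of the log2 fold change over the square root of the test's F statistic. The 95% intervals are 1.96 SE to each side. They leave out the test's degrees of freedom and so are narrower than its p-values imply. Plotted or correlated log2 CPM used a prior count of 2. On simulated counts with 200 changed genes in the FR8vB comparison of FS animals, 198 were recovered with 0 false calls over 13614 genes, and with 200 changed in CPF against FS at FR8, 163 were recovered with 7 false calls over 12017 genes. These counts had a common dispersion for all genes, no animal effect, and changes past the fold of a call in genes better counted than MFAP2. Recovery of changes near that fold, or in genes as scarce as MFAP2, was not tested. The pairing comes from the animal code in each title. As a check, residuals correlated at a median of 0.21 within an animal, where 94 of 126 pairs exceeded 0.1, and at −0.02 between animals. DESeq2 1.42.0, the likelihood ratio test, other scalings and filters, and other sets of libraries were alternatives.

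The 9 genes, the 9 role lists and the 10 cell type lists were chosen with earlier results of these data known. Role genes named in the text are among the called genes with the highest and lowest change of their list in a comparison with Baseline. Likeness was described for MFAP2, FN1 and TIMP1. Floors of 3 counts cover counting error only. No sequences or coordinates are given, since the reference tables at hand are of another genome build.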

Additional observations from a re-analysis of the deposited data

Results flagged for a closer look

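Groups of 4 or 5 libraries occur among CPF animals alone, and FS groups, with 15 or 18, were not tested. In 32 such CPF groups, 1 for each gene and time, 4 held a value of the 8 genes that stood past Dixon's critical value, where chance gives about 5% of groups. At FR8 animal 4 was lowest for MFAP2 (0.0799 CPM, next 0.636) and for COL3A1 (226 CPM, next 526.5). Animal 3 was highest for LOX at FR8 (14.1 CPM, next 4.38) and at FR20 (12.3 CPM, next 3.63). The MFAP2 value is a single count.

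The 3 FS Baseline libraries without albumin were used in no comparison, and on CPM of their own totals several of the genes lay above the highest of the other FS Baseline libraries. MFAP2 was 6.01, 5.10 and 14.1 CPM in animals 13, 14 and 16 (others at most 3.20), and TIMP1 was 307, 255 and 917.5 (others at most 144). COL3A1 was 1094 and 1378 in animals 13 and 16 (others at most 1028). In animal 16 COL1A2 was 594 (others at most 468), ELN 22.8 (22.4) and LOX 7.36 (5.49). FN1 lay far lower in all 3, at 191, 127 and 352 CPM, where the others had at least 2720, and FBLN1 at 13.5, 16.9 and 34.6, where the others had at least 59.4. FR8 libraries of the same 3 animals scored on the Baseline side of the midpoint.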

How the results depend on the processing

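No called value changed sign. Of the log2 fold changes of the 8 genes in 16 comparisons, 2271 stayed on their side of the call with 1 animal left out, 8 came to be called and 22 were lost. Under other settings 1389 stayed, 23 came to be called and 17 were lost. The number of genes called stayed within 1.5 times in 272 refits with 1 animal left out and 159 other settings, and moved in 17 and 20. The cause of these moves was not tested, except that a call by the adjusted p alone drops the fold by construction.

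In FS animals the 3 genes called at FR2vB were 6 by the adjusted p alone. The 2 at FR8vB were 6 by the adjusted p alone, 1 with the Baseline libraries without albumin kept, 1 with no replicate block, 1 in 86 libraries, and 5 without the 6 libraries on the other side of the midpoint or in 80 libraries. The 3 at FR20vB were 6 by the adjusted p alone and 1 with those Baseline libraries kept. The 1 from FR2 to FR8 (MFAP2, whose FR8 libraries chose it) was 3 by the adjusted p alone and 0 with no replicate block. The 1 from FR8 to FR20 was 2 by the adjusted p alone (COL1A2 and COL3A1). It was also 2 without the 6 libraries and in 80 libraries (COL1A2 and MFAP2), where the MFAP2 call again uses the FR8 libraries that chose it. In CPF animals the 1 at FR2vB was 0 with no filter, with those Baseline libraries kept, and with no replicate block. The 3 at FR8vB were 1 with those Baseline libraries kept (LOX), and the 0 at FR20vB was 1 without the 6 libraries and in 80 libraries (TIMP1).

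With each animal left out in turn the counts ranged in FS animals from 2 to 3 at FR2vB, 1 to 3 at FR8vB, 3 to 3 at FR20vB, 0 to 1 from FR2 to FR8 and 0 to 1 from FR8 to FR20, and in CPF animals from 0 to 0 at FR2vB, 0 to 3 at FR8vB and 0 to 1 at FR20vB. They stayed at 0 between fed groups and between died and lived. The refits without a CPF animal kept both libraries of FS animal 8. The fit without the replicate block, that is without the pairing by animal, ended the calls of COL1A2 at FR2vB and FR8vB in FS animals, of MFAP2 from FR2 to FR8 and of TIMP1 at FR2vB in CPF animals, and changed no other call. MFAP2, with 0 to 39 counts a library, is the gene whose level depth limits most.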
